A study of Mus musculus with 12 samples.

Results

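The genes described are the connexin and pannexin genes listed as Gja1, Gja4, Gjb2, Gjb5, Gjc1 and Panx1, followed in mouse C18-4 cells after knockdown or overexpression of lncRNA5251. The 6 members were picked by their gene symbols in the table of 17576 genes. Gja1 was chosen by its measured levels, since its RPKM in C18_5251KD against C18_3NC and in C18_5251OV against C18_5NC had been seen to differ. Its values are therefore given as a description, without a test. Of the 6 members, 5 had a row in the table and 4 of them (Gja1, Gjb5, Gjc1 and Panx1) reached 1 RPKM or more in no fewer than 3 libraries, the filter used before testing. Gja4 was measured but stayed below this filter, and no value of Gjb2 was analysed here.

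C18-4 cells are immortalized mouse spermatogonia, used as a model of spermatogonial stem cells, and the labels name the strain as IRC mouse. Each of 4 groups had 3 RNA-seq libraries, 12 in all, and every group was stably transfected with a lentiviral vector. C18_3NC received the LV3 vector with a control shRNA, C18_5251KD received LV3 with a mixture of shRNAs against lncRNA5251, C18_5NC received LV5 with no insert, and C18_5251OV received LV5 with the full-length lncRNA5251. Within C18_5251KD against C18_3NC and within C18_5251OV against C18_5NC the vector was the same, while its insert and the culture go with the group. Between LV3 and LV5 groups the vector goes with the group as well. The effects of what goes with the group cannot be told apart. The target is given as in the labels and in the study's main methods, while a heading in its supplementary methods for these cells names another lncRNA. LncRNA5251 has no row of its own, so its knockdown and overexpression were not checked here. The labels do not say whether the 3 libraries of a group came from separate cultures, and p-values then measure only the spread between libraries, which may be technical.

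Connexins are membrane proteins that assemble into hexameric hemichannels. Hemichannels of neighbouring cells dock to form gap junctions, through which ions and small metabolites pass from cytoplasm to cytoplasm. Connexin 43 (CX43, from Gja1) is the main connexin of the seminiferous epithelium, where it couples Sertoli cells with each other and with germ cells at the blood-testis barrier. Pannexins have a similar fold but act mostly as single-membrane channels that release ATP. The question was whether the other members moved with Gja1 when lncRNA5251 was modulated, or were higher where Gja1 was low.

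Sums of RPKM per library lay between 533099 and 580920, and RPKM (reads scaled to gene length and library size) do not keep the depth in reads. Within a group, Spearman correlations between libraries across genes were between 0.988 and 0.990. Of 16 germ cell markers in the table, Uchl1 and Etv5 were above 1 RPKM in every library and Id4 was above it in all but 2 C18_5251KD libraries, while 13 stayed below 1 RPKM in every library, among them Ddx4, Dazl, Zbtb16 and Gfra1, and Kit, Ret and Nanos2 were listed at 0 throughout. The summed RPKM of the germ cell markers was 83.3 to 91.8 in C18_3NC, 64.3 to 72.7 in C18_5251KD, 94.4 to 98.3 in C18_5NC and 110.4 to 128 in C18_5251OV, and most of it was Uchl1, with means of 77.1, 65.1, 91.1 and 115.9 RPKM in the same order. Single markers differed from the sum, with means of 7.81, 2.35, 3.10 and 2.86 RPKM for Etv5 and 0.157, 0.393, 0.33 and 0.297 RPKM for Sycp3. Sums of 9 mesenchymal markers were 891 to 936, 1021 to 1124, 1211 to 1252 and 1263 to 1354 in the same order. They came mostly from Vim, with means of 536, 541, 537 and 610 RPKM, and Col1a1, with 256, 367, 381 and 423. Among the 9, Col1a1 alone had means in the order of the sums. Means were 1.32, 1.09, 0.877 and 0.803 for Pdgfra and 8.52, 18.6, 21.2 and 13.6 for Acta2. Sums of 8 Sertoli markers were 61.9 to 64.0, 63.5 to 66.3, 67.5 to 69.6 and 70.0 to 73.4, with Wt1, Clu, Gata4 and Inha above 1 RPKM and Sox9 and Amh below it, and with Rhox5 at means of 2.89, 2.52, 0.913 and 0.94. Those of 5 epithelial markers were 318 to 326, 319 to 353, 269 to 290 and 360.2 to 439, with Cdh1 below 1 RPKM. Most of this sum was Krt19, with means of 250.2, 232, 212 and 334 RPKM, while those of Krt18 were 67.5, 97.7, 60.6 and 66.8 and those of Epcam 1.85, 2.39, 2.54 and 1.42. Leydig markers (4 in the table) summed to at most 2.39 RPKM and endothelial markers (4) to at most 1.05. Sums of 4 leukocyte markers were 4.12 to 5.61, 2.55 to 2.89, 2.04 to 2.34 and 1.36 to 2.69 in the same order. These came mostly from Cd68, with Ptprc below 1. The part of these marker levels in the results on the family was not tested, and in bulk RNA fewer cells of a type and less RNA per cell cannot be told apart.

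The sequences just upstream of the RefSeq starts of Gja1 and Gjb5 are shown. In these members all C18_5251KD libraries lay below all C18_3NC libraries. They are the 250 bases before the RefSeq transcript start on GRCm38.p6, with entries for 5 of the 6 members and none for Gjc1. The Gja1 promoter lies at chr10:56377050-56377299 on the plus strand and has a GC content of 50.0%. The Gjb5 promoter lies at chr4:127358165-127358414 on the minus strand and has a GC content of 54.4%. These RefSeq starts are not those of the GENCODE genes given with the levels, since the GENCODE gene of Gja1 starts downstream of the printed stretch, at 56377330, and that of Gjb5 reaches into it, to 127358181. Distances to the start are counted from the RefSeq start. Capitals mark the motif matches described after them.
Gja1 promoter: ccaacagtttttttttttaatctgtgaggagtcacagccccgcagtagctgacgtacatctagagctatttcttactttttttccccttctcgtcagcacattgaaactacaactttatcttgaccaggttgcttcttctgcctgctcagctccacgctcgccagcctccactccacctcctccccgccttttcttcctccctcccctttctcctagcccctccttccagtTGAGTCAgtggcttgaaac
Gjb5 promoter: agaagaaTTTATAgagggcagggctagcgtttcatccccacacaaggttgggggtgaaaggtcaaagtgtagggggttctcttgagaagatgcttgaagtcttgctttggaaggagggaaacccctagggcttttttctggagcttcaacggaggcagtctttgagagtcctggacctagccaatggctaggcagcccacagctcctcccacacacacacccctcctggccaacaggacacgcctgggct
Both strands were searched for 6 motifs. For AP-1 the letters were TGANTCA, which 6.75% of all 32851 mouse promoters of this length held. In Gja1 there was 1 match, TGAGTCA, which lies 19 to 13 bases before the start. For the TATA box the letters were TATAAA, held by 12.4% of promoters. In Gjb5 these letters, read on the other strand as TTTATA, lie 243 to 238 bases before the start and are its only match. For the GC box, GGGCGG was held by 32.7% of promoters, and in Gja4 a match lies 79 to 74 bases before the start. The promoter of Gjb2, which has no level here, held 2 matches, at 211 to 206 and 126 to 121 bases before the start. The E-box CACGTG was held by 6.02% of promoters and by none of Gja1, Gja4, Gjb5 and Panx1. The same was true of the TEAD motif GGAATG, held by 12.6% of promoters. A cAMP response element, TGACGTCA, was held by 1.55% of promoters and again by none of these. The Panx1 promoter held none of the 6 motifs. None of these matches overlapped another, and a match describes letters only.

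By RPKM, a level per gene length, Gja1 was the second most abundant member after Gjc1 in every library. Gjb5 came next in C18_3NC and Panx1 in C18_5251KD and C18_5NC, without overlap between these 2 genes, while in C18_5251OV their levels overlapped, and Gja4 was the lowest throughout. The Gja1 gene spans chr10:56377330-56402513 on the plus strand (GENCODE annotation on GRCm38, a build the files do not name), with its coding sequence in 1 exon. In C18_3NC its level was 20.9, 20.3 and 19.8 RPKM in replicates 1, 2 and 3, and in C18_5251KD it was 4.91, 5.06 and 5.29 RPKM. Every knockdown library lay below every library of the other 3 groups. In C18_5NC it was 16.7, 16.5 and 16.9 RPKM, and in C18_5251OV it was 21.2, 22.8 and 23.9 RPKM. All C18_5251OV libraries lay above all C18_5NC libraries, and all C18_3NC libraries lay between these groups.

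Group means of Gja1 (± SD, n = 3 libraries) were 20.3 ± 0.536 RPKM for C18_3NC and 5.09 ± 0.191 RPKM for C18_5251KD, and 16.7 ± 0.200 RPKM for C18_5NC against 22.6 ± 1.41 RPKM for C18_5251OV. On the log2(RPKM + 1) scale, which understates changes of low genes, the difference was -1.81 for C18_5251KD minus C18_3NC and 0.42 for C18_5251OV minus C18_5NC. The control vectors also differed, by -0.27 for C18_5NC minus C18_3NC, and C18_5251KD minus C18_5NC was -1.54. Against either control, Gja1 was thus at a lower level in C18_5251KD by more than the difference between the controls.

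**Figure D1:**
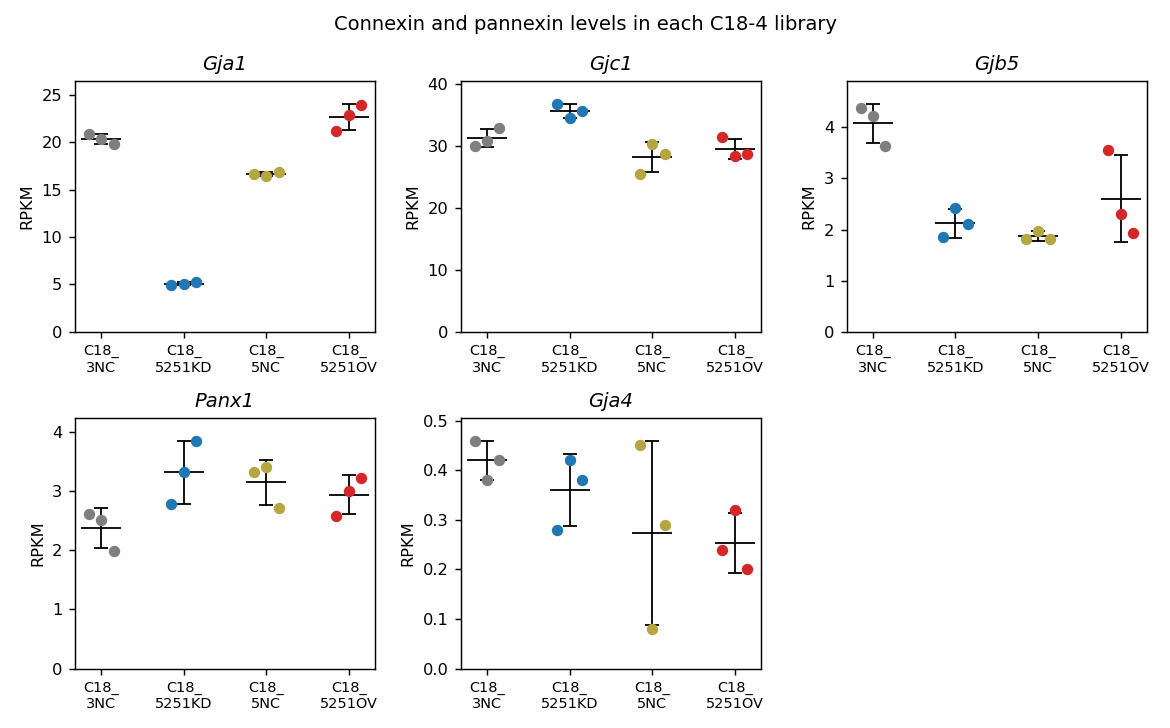
RPKM of 5 connexin and pannexin genes (1 panel each, axes from 0) in the 12 libraries by group. Points are libraries, and the bars are the mean and SD of 3 libraries. Gja1 is lowest in C18_5251KD and highest in C18_5251OV, Gjb5 is highest in C18_3NC, Gjc1 is highest in C18_5251KD, and Gja4 stays below 0.5 RPKM.

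The main threshold was a Benjamini-Hochberg adjusted p no higher than 0.001 over 11435 genes in limma, together with a difference of 1 or more in either direction on the log2 scale. In C18_5251KD against C18_3NC, 0 of the 3 other members tested (Gjb5, Gjc1 and Panx1) passed it, and 1.57% of all genes tested did. All 3 had an unadjusted p under 0.05, as did 6910 of all 11435 genes. At the 0.05 threshold, an adjusted p no higher than 0.05 with no limit on the fold, 2 members rose (Gjc1 and Panx1) and 1 fell (Gjb5). Among all genes, 31.9% were higher and 23.5% lower at this second threshold. The median difference over all genes was 0.04.

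Gjc1 encodes CX45, a connexin of the heart conduction system and of many embryonic tissues, and was the most abundant member in every library. The gene lies at chr11:102799579-102819700 on the minus strand. Its level was 30.1, 30.9 and 32.9 RPKM in C18_3NC, and 36.9, 34.6 and 35.7 RPKM in C18_5251KD. The knockdown libraries all lay above the C18_3NC libraries, although by little. Gjc1 rose from 31.3 ± 1.44 to 35.7 ± 1.13 RPKM (SD, n = 3), a log2(RPKM + 1) difference of 0.19 (standard error 0.06, adjusted p = 0.0204, limma). The adjusted p was above 0.05 without C18_3NC replicate 1 (0.0817), C18_3NC replicate 2 (0.0599) or C18_5251KD replicate 1 (0.074), with differences of 0.16, 0.18 and 0.16, and over all alternatives it ranged from 0.00972 to 0.0817.

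In C18_5NC, Gjc1 was at 25.6, 30.4 and 28.7 RPKM, and in C18_5251OV at 31.5, 28.5 and 28.8 RPKM. These groups overlapped, with a difference of 0.07 (standard error 0.06, adjusted p = 0.455, limma). Against C18_5NC, Gjc1 in C18_5251KD was higher by 0.33 (standard error 0.06, adjusted p = 0.000284, limma), again with no overlap between libraries. Gjc1 was therefore higher in C18_5251KD than in either control, by less than 0.5 on the log2 scale.

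Gjb5 encodes CX31.1, a connexin of epidermis and placenta. The gene lies at chr4:127354809-127358181 on the minus strand. In C18_3NC it was at 4.37, 4.21 and 3.64 RPKM, and in C18_5251KD at 1.85, 2.42 and 2.10 RPKM. Libraries of these groups did not overlap, and Gjb5 fell from 4.07 ± 0.384 to 2.12 ± 0.286 RPKM (SD, n = 3), a difference of -0.70 (standard error 0.13, adjusted p = 0.000284, limma). In C18_5NC, however, Gjb5 was at 1.81, 1.98 and 1.82 RPKM. The C18_5251KD libraries overlapped those of C18_5NC, and the difference between them was 0.12 (standard error 0.13, adjusted p = 0.432, limma). In C18_5251OV the levels were 3.56, 2.30 and 1.94 RPKM, with replicate 1 far above the others and replicate 3 within the range of C18_5NC. The difference from C18_5NC was 0.30 (standard error 0.13, adjusted p = 0.101, limma), 0.12 without C18_5251OV replicate 1 (adjusted p = 0.468) and 0.44 without C18_5251OV replicate 3 (adjusted p = 0.0126). Over all alternatives this adjusted p lay between 0.0126 and 0.468.

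Panx1 encodes pannexin 1, a widely expressed ATP release channel. It spans chr9:15002128-15045478 on the minus strand and has 5 coding exons. Its level was 2.62, 2.52 and 1.99 RPKM in C18_3NC, and 2.79, 3.32 and 3.86 RPKM in C18_5251KD. The groups did not overlap, and Panx1 rose from 2.38 ± 0.339 to 3.32 ± 0.535 RPKM (SD, n = 3), a difference of 0.35 (standard error 0.11, adjusted p = 0.0113, limma). The call was lost without C18_3NC replicate 3 (0.27, adjusted p = 0.0653) or without C18_5251KD replicate 3 (0.27, adjusted p = 0.0596), in a range of 0.0046 to 0.0653 over all alternatives. In C18_5NC, Panx1 was at 3.32, 3.42 and 2.72 RPKM and overlapped with C18_5251KD, with a difference of 0.05 (standard error 0.11, adjusted p = 0.673, limma). In C18_5251OV it was at 2.59, 3.01 and 3.23 RPKM, and the difference from C18_5NC was -0.07 (standard error 0.11, adjusted p = 0.645, limma), which turned to 0.03 after quantile normalization.

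Gja4 encodes CX37, known from endothelium and from the junctions between oocyte and granulosa cells. It lies at chr4:127311421-127314039 on the minus strand. Its level was 0.46, 0.38 and 0.42 RPKM in C18_3NC, 0.28, 0.42 and 0.38 in C18_5251KD, 0.45, 0.08 and 0.29 in C18_5NC, and 0.24, 0.32 and 0.20 in C18_5251OV. The groups overlapped in both comparisons. In a fit without the filter on low values the differences were -0.06 for C18_5251KD minus C18_3NC (standard error 0.09, adjusted p = 0.631, limma) and -0.01 for C18_5251OV minus C18_5NC (standard error 0.09, adjusted p = 0.978, limma). Neither difference passed the 0.05 threshold in that fit.

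In C18_5251OV against C18_5NC, 0 of the 3 other members were called at the main threshold, where 0% of all genes were, and 0 passed the 0.05 threshold (limma). At the latter, 8.07% of all genes were higher and 13.9% lower, 2518 genes in all. That number was 4181 without C18_5251OV replicate 3 and 974 to 1639 without any other single library. After quantile normalization 49.7% of the genes past the 0.05 threshold were higher, against 36.7% with RPKM as deposited. At an unadjusted p under 0.05 there was 1 member, Gjb5, and there were 4238 of all 11435 genes.

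The control groups, neither of which was meant to change lncRNA5251, were compared in the same way. In C18_5NC against C18_3NC, 0 of the 3 members were called at the main threshold (2.61% of all genes), 1 rose (Panx1) and 1 fell (Gjb5) at the 0.05 threshold, where 31.0% of all genes were higher and 25.6% lower. All 3 had an unadjusted p under 0.05, as did 7020 of all 11435 genes. Upper-quartile scaling made 44.4% of the genes called at 0.05 higher, against 54.7% as deposited. Gjb5 differed by -0.82 (standard error 0.13, adjusted p = 6.76e-05, limma) with no overlap between libraries, where C18_5251KD minus C18_3NC was -0.70. Panx1 differed by 0.30 (standard error 0.11, adjusted p = 0.027, limma). The Panx1 call was lost without C18_3NC replicate 3 (adjusted p = 0.132), C18_5NC replicate 1 (0.0842) or C18_5NC replicate 2 (0.0989), with no filter (0.0596) or with upper-quartile scaling (0.0561), with a range of 0.015 to 0.132 over all alternatives. Gjc1 differed by -0.15 (adjusted p = 0.0602), or by -0.20 without C18_5NC replicate 2 (adjusted p = 0.0231) and -0.08 without C18_5NC replicate 1 (adjusted p = 0.302), and its adjusted p ranged from 0.0114 to 0.302.

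In C18_5251KD against C18_5NC, 0 of the 3 members were called at the main threshold (3.55% of all genes). At the 0.05 threshold, 1 member rose (Gjc1) and 0 fell, where 34.0% of all genes were higher and 31.4% lower, and 1 had an unadjusted p under 0.05, beside 7795 of all 11435 genes. This comparison shares the C18_5251KD libraries with that against C18_3NC, so the pair is not independent. Of the changes of Gjb5, Gjc1 and Panx1 in C18_5251KD against C18_3NC, only that of Gjc1 was also called against C18_5NC.

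**Figure D2:**
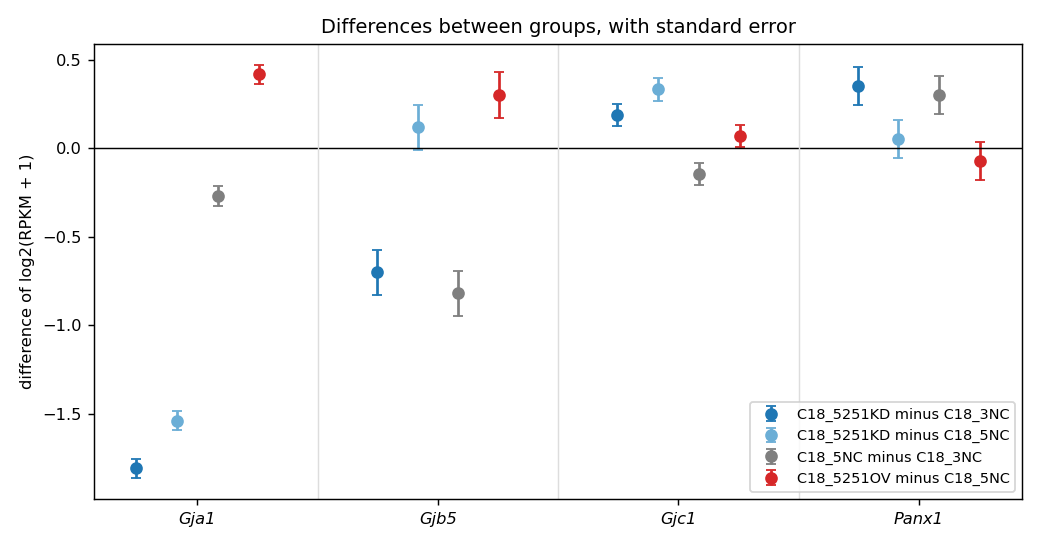
Difference of log2(RPKM + 1) between groups for the 4 members past the filter, in 4 comparisons that share groups. Points are limma estimates and bars their standard errors. Gja1 lies far below 0 for C18_5251KD against both controls, while Gjb5 lies below 0 against C18_3NC (-0.70) but not against C18_5NC (0.12).

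Of the other connexin and pannexin genes reported here, 12 had a row in the table, and all 12 stayed below 1 RPKM in every library. Their highest value was 0.66 RPKM, for Panx3 in C18_5251KD.

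The likeness to Gja1 was measured as the root mean square difference of log2(RPKM + 1) over the 12 libraries, after each gene was centred on its mean, so that a smaller value is closer. Gjb5 was at 0.725, Panx1 at 0.876 and Gjc1 at 0.893. A gene with the same value in every library would be at 0.781, and the median over all tested genes was 0.819. Panx1 and Gjc1 were thus farther from Gja1 than a flat gene. The genes closest to Gja1 were Lif at 0.183, Srm at 0.189, Rrp12 at 0.198, Nop2 at 0.200 and Mybbp1a at 0.205. Lif encodes a cytokine, Srm makes spermidine, Rrp12 and Nop2 act in ribosome assembly, and Mybbp1a is a nucleolar protein. Lif had mean levels of 9.35 RPKM in C18_3NC, 2.90 in C18_5251KD, 8.76 in C18_5NC and 10.5 in C18_5251OV, and Srm had 66.7, 25.3, 63.9 and 84.2 RPKM. For Rrp12 the means were 15.7, 4.98, 17.4 and 18.3 RPKM, for Nop2 62.3, 22.4, 62.9 and 66.9, and for Mybbp1a 144, 50.5, 114 and 138. These genes were picked for their likeness, and no test was made of it.

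**Figure D3:**
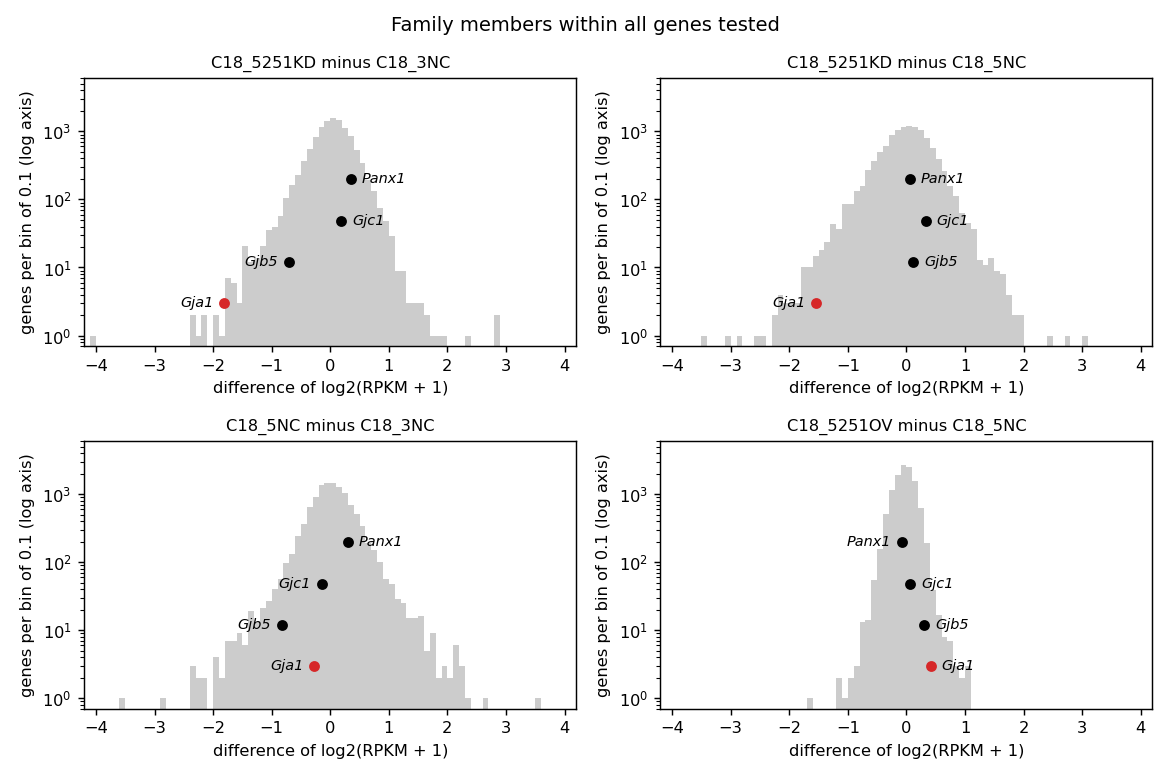
Differences of log2(RPKM + 1) of all 11435 genes tested, as the number of genes per bin of 0.1 on a log axis, in 4 comparisons. Dots mark members at their difference on the horizontal axis, and their height is only for legibility. Gja1 (red) lies in the lower tail in both C18_5251KD panels, at -1.81 against C18_3NC, and Gjc1 and Panx1 lie within the bulk of genes in every panel.

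Summed RPKM of the member connexins in the table (Gja1, Gja4, Gjb5 and Gjc1) was 56.1 ± 0.576 in C18_3NC, 43.3 ± 0.720 in C18_5251KD, 47.1 ± 2.26 in C18_5NC and 55.1 ± 1.27 in C18_5251OV (SD, n = 3). Gja1 made up 36.2 ± 1.26% of this sum in C18_3NC, 11.7 ± 0.507% in C18_5251KD, 35.5 ± 1.90% in C18_5NC and 41.1 ± 3.26% in C18_5251OV. Without Gja1, the sum was 35.8 ± 1.05, 38.2 ± 0.775, 30.4 ± 2.33 and 32.4 ± 2.48 RPKM in the same order. The difference in Gjc1 between C18_5251KD and C18_3NC was thus smaller in RPKM than that in Gja1, and the sum of the members stayed lower than in C18_3NC in every knockdown library.

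**Figure D4:**
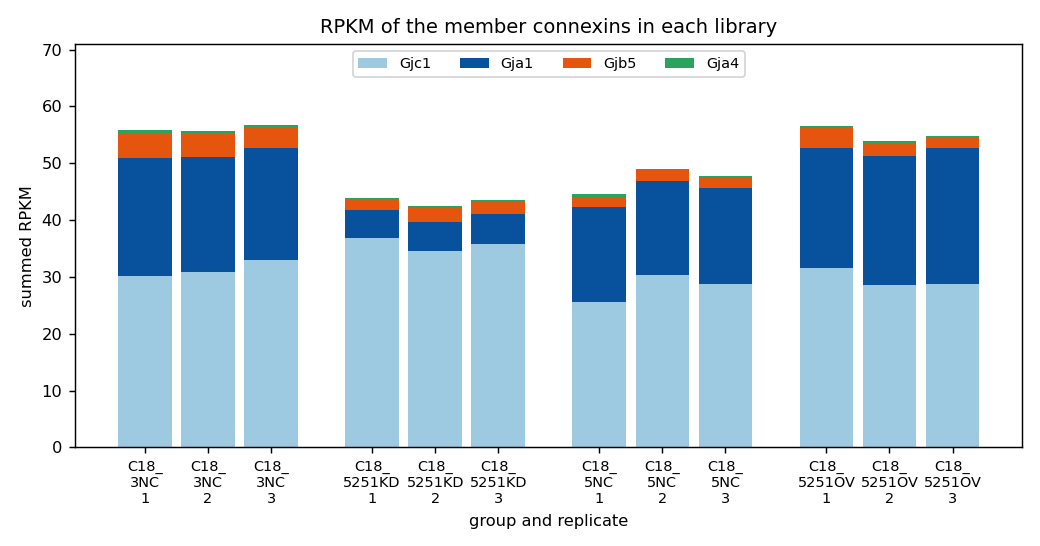
RPKM of the 4 member connexins in each of the 12 libraries (horizontal axis, group and replicate), stacked by gene from 0. The C18_5251KD bars are the shortest, at 42.5 to 43.9 RPKM, with little Gja1 and more Gjc1 than any library of the other groups, and Gja4 is barely visible.

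Of 16 tested partners and turnover factors of CX43, 4 rose and 7 fell in C18_5251KD against C18_3NC at the 0.05 threshold, where 31.9% of all genes were higher and 23.5% lower, with a median difference of -0.03 against 0.04 over all genes. Cav1, the caveolar coat protein, rose from 154 ± 5.79 to 209 ± 7.90 RPKM (SD, n = 3; difference 0.44, adjusted p = 8.48e-07, limma). Smurf2, a ubiquitin ligase, rose by 0.26. Cdh2, which encodes N-cadherin, fell by 0.67 (standard error 0.05, adjusted p = 6.62e-08, limma), and Dbn1, which encodes the actin-binding protein drebrin, fell by 0.34. Against C18_5NC, Cdh2 (-1.48, adjusted p = 7.16e-12, limma) and Nov (-1.28, adjusted p = 1.41e-09, limma), the matricellular protein CCN3, passed the main threshold. Both were higher in C18_5NC than in C18_3NC, Cdh2 by 0.81 and Nov by 1.08, and Nov in C18_5251KD against C18_3NC was at -0.20 (adjusted p = 0.0338, limma).

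Of 15 tested kinases and phosphatases that act on CX43, 4 rose and 1 fell in C18_5251KD against C18_3NC, beside the same 31.9% and 23.5% of all genes, with a median of 0.01. Mapk3 (ERK1) rose by 0.32 (adjusted p = 0.000336, limma), Prkaca, the catalytic subunit of protein kinase A, rose by 0.30 and Akt1 fell by 0.16. Against C18_5NC, Mapk3 was at 0.12 with overlapping libraries (adjusted p = 0.0906, limma), and it was higher by 0.20 in C18_5NC than in C18_3NC (adjusted p = 0.00982, limma). Of 6 other large-pore channel genes, 0 rose and 2 fell, with a median of -0.10. Lrrc8d, a subunit of the volume-regulated anion channel, fell from 15.3 ± 0.430 to 8.96 ± 0.180 RPKM (SD, n = 3; difference -0.71, adjusted p = 5.16e-08, limma), and its relative Lrrc8c fell by 0.27. Lrrc8d was also lower in C18_5NC than in C18_3NC, at -0.55 (adjusted p = 5.55e-07, limma), and C18_5251KD minus C18_5NC was -0.16 (adjusted p = 0.0183, limma). Of 2 tested genes of extracellular ATP and adenosine signalling, 1 rose and 1 fell, with a median of -0.03. P2rx4, an ATP-gated channel, rose by 0.36, while P2rx7, an ATP-gated channel that works with Panx1, fell by 0.42.

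Against C18_5NC these lists gave 5 higher and 7 lower partners, 4 higher and 6 lower kinases and phosphatases, 1 higher and 4 lower large-pore channels, and 0 higher and 2 lower genes of ATP signalling, where 34.0% of all genes were higher and 31.4% lower. P2rx4 was at -0.17 there, opposite in sign to its difference from C18_3NC, while P2rx7 (-0.88) had the same sign in both. In C18_5NC against C18_3NC, 7 partners rose and 3 fell, 5 kinases and phosphatases rose and 3 fell, 2 large-pore channels rose and 2 fell, and 2 genes of ATP signalling rose and 0 fell, beside 31.0% of all genes higher and 25.6% lower. In C18_5251OV against C18_5NC, 2 of 16 partners rose and 3 fell, 3 of 15 kinases and phosphatases rose and 1 fell, 2 of 6 large-pore channels fell, and 0 of 2 genes of ATP signalling passed the 0.05 threshold, which 8.07% of all genes passed as higher and 13.9% as lower.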

How the data were processed

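RNA-seq was analysed for 12 libraries of C18-4 cells, 3 in each of 4 groups taken from the labels. The authors mapped reads to reference genes with SOAPaligner and deposited RPKM values for 17576 genes, 568 of them at 0 in every library. The genome build and gene set are not given in the sources used here. The supplement describes oligo(dT) enrichment, and the labels name total RNA. RPKM keep no read numbers, so depth is unknown, and RPKM of connexin genes depend on how reads of related genes were mapped. No value column was left without a sample (0 columns).

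The deposited RPKM were transformed to log2(RPKM + 1), and 11435 genes that reached 1 RPKM in 3 or more libraries were kept. A model of all 12 libraries was fitted in limma 3.58.1 (R 4.3.3) with a term for group and eBayes with a trend, with Benjamini-Hochberg adjustment, and the script was tested on simulated data. The main threshold was an adjusted p no higher than 0.001 with a log2 fold change of 1 or more in size, and rose or fell means an adjusted p no higher than 0.05. A test for counts had been allowed for and was not used, since the table holds RPKM. An exact permutation test of 3 against 3 libraries cannot go below p = 0.1.

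The members, the gene lists and the alternatives were chosen with earlier results of these data known. Named were the 6 members, other family genes with at least 1 RPKM in any library, listed pathway genes past the main threshold in any comparison or with the largest 2 rises and 2 falls in C18_5251KD against C18_3NC, and the 5 genes most like Gja1. Panx3, Gja6 and Gjc3 were named after their values were seen. Some genes of the family and of the lists are not reported here, and they were left out of the lists, sums, counts and figures, so these do not cover the whole family. Alternatives were pseudocounts of 0.1 and 0.5, no filter or a filter of 0.3 RPKM, quantile normalization, upper-quartile scaling, only the 6 libraries compared, a replicate block, no trend, and each library left out in turn. Figures were drawn with matplotlib 3.10.9.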

Additional observations from a re-analysis of the deposited data

How the results depend on the processing

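Of 180 values of Gjb5, Gjc1 and Panx1 under alternatives, 162 kept their direction and side of the 0.05 threshold, 10 lost their call, 5 gained one and 3 reversed, and the cause was not tested. Of 60 values of Gja1, which was not tested, 6 moved by more than 1 SD and 0 reversed. The difference of Panx1 in C18_5251OV against C18_5NC reversed to 0.028 after quantile normalization, and in C18_5251KD against C18_5NC it ranged from -0.034 to 0.15 without 1 library, reversed without C18_5251KD replicate 3 or C18_5NC replicate 3 (-0.023). In C18_5251OV against C18_5NC, leaving out 1 library gave between 0 and 1 members past the 0.05 threshold (limma). The 1 was Gjb5 without C18_5251OV replicate 3, a fit that called 4181 of 11435 genes, against 2518, while leaving out any other single library called 974 to 1639. In C18_5NC against C18_3NC that count was 1 in place of 2 with no filter, 2 with upper-quartile scaling (Gjc1 in place of Panx1), 3 after quantile normalization or with only the 6 libraries compared, and between 1 and 2 without 1 library, and 1 member, Gjb5, passed the main threshold with a pseudocount of 0.1. At the 0.05 threshold, 6670 of all 17008 genes were called with no filter. Of 11435 genes, 6612 were called with upper-quartile scaling, 6548 after quantile normalization and 7527 with only the 6 libraries compared. Without 1 library 5726 to 5832 were called, against 6466 with the main settings. The share of Gja1 in the summed member connexins was 11.2% in C18_5251KD after quantile normalization, in place of 11.7%. Over all genes, the main threshold gave 363 calls against 180 with a pseudocount of 0.1 in C18_5251KD against C18_3NC, 506 against 298 in C18_5NC against C18_3NC, 657 against 406 in C18_5251KD against C18_5NC, and 4 against 0 in C18_5251OV against C18_5NC. In the last, 1490 genes passed the 0.05 threshold with only the 6 libraries compared. Same-numbered libraries did not deviate together (correlations from -0.178 to 0.176, and from -0.205 to 0.222 for libraries of different numbers). Pairing by number was thus not seen, although a weak pairing could be missed. The replicate block changed no count of members. In C18_5251KD against C18_3NC the count at the 0.05 threshold was 3. Leaving out C18_5251KD replicate 2 kept it at 3, and leaving out any other single library gave 2. Those fits called 5606 to 6144 of all 11435 genes. Alternatives for counts were not run, since the values are RPKM.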

Other observations

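Panx3, which encodes a pannexin known from cartilage and bone, was below 1 RPKM in every library and was singled out after its values were seen. It was at 0.11, 0.11 and 0.11 RPKM in C18_3NC, 0.58, 0.51 and 0.66 in C18_5251KD, 0.32, 0.13 and 0.19 in C18_5NC, and 0.34, 0.29 and 0.34 in C18_5251OV. The knockdown libraries lay above all others. In a fit without the filter on low values its log2(RPKM + 1) difference was 0.51 for C18_5251KD minus C18_3NC (standard error 0.05, adjusted p = 1.97e-05, limma), 0.39 against C18_5NC (adjusted p = 9.83e-05, limma) and 0.13 for C18_5251OV minus C18_5NC (adjusted p = 0.136, limma). At such levels the number of reads behind each value is unknown. Of 13 family genes under the filter, 3 (Panx3, Gja6 and Gjc3) were higher at the 0.05 threshold in this fit and 0 lower, against C18_3NC and against C18_5NC alike. Over all 17008 genes of the fit, 22.5% and 24.7% were higher and 15.7% and 21.9% lower, so the share of higher family genes was near the background. Gja6 was at 0.07, 0.04 and 0 RPKM in C18_3NC and at 0.10, 0.34 and 0.24 in C18_5251KD, a difference of 0.24 (adjusted p = 0.00567, limma), and of 0.19 against C18_5NC (adjusted p = 0.0147, limma). Gjc3 was at 0.43, 0.35 and 0.35 RPKM in C18_3NC and at 0.47, 0.50 and 0.51 in C18_5251KD, a difference of 0.12 (adjusted p = 0.0457, limma), and of 0.22 against C18_5NC (adjusted p = 0.0012, limma). With a filter of 0.3 RPKM the adjusted p of Gjc3 against C18_3NC was 0.18 (limma), and Gja6 did not pass that filter.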
